A study of Solanum lycopersicum with 86 samples.

Results

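Moneymaker and M82, 2 cultivated varieties of tomato (Solanum lycopersicum), were compared in first internodes harvested under added far-red light (FR). All libraries titled as FR internodes entered, 30 of the 86 libraries of the series. Moneymaker gave 19 of them, with 5, 5, 3 and 6 libraries at 6, 24, 30 and 48 h after the light treatment started. M82 gave 11, with 3, 2, 3 and 3 libraries at the same times. Plants of both cultivars carried the genotype tag Wildtype and were grown at 20 °C and 70% humidity with 16 h of light and 8 h of dark. White light of 200 PAR (photosynthetically active radiation) was supplemented with far-red light to a red to far-red ratio of 0.21. The series also holds internodes kept in white light (WL) without the supplement and pith, the innermost tissue of the internode, under both lights. The WL internodes gave 13 Moneymaker and 15 M82 libraries. Whole internodes mix several tissues, so that fewer cells of a type and less RNA per cell cannot be told apart.

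Plants sense neighbours through light that leaves have reflected or transmitted, which is rich in far-red. Phytochromes, the photoreceptors that switch between a red-absorbing and a far-red-absorbing form, read the ratio, and in many species a low ratio releases growth factors that lengthen the stem. Cultivars of a crop differ by DNA variants and by introgressed stretches of chromosome, so transcripts can differ between them in any light. The comparison asks which transcripts distinguish the cultivars in the elongating stem under the shade signal.

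The authors deposited read counts divided by a scaling factor for each library, and a unit below is 1 such scaled read. Depth ran from 1.06 to 22.1 M reads in Moneymaker (median 3.30) and from 1.29 to 15.3 M reads in M82 (median 2.96), where M is 1e6. Genes with at least 1 read numbered 17606 to 21849 per library. Differences were fitted with limma on log2(value + 1), with time as a block, and a gene counted as called when its p, adjusted by the Benjamini-Hochberg method, was below 0.05. All log2 differences are Moneymaker minus M82 on that scale, and they understate the difference of low genes. Genes are given by the identifiers of the file, in which the digits after Solyc are the chromosome. The files do not pair them with names (0 of 23050 matched the reference table), so no gene names or roles are given.

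There were 6 libraries that stood apart. Each library received a cultivar score, the mean log2 value of 50 genes higher in Moneymaker pith minus that of 48 genes lower there. It was 1.38 to 3.5 in Moneymaker (median 3.04) and -1.26 to 0.689 in M82 (median -0.892). The pith libraries behind the score were used as labelled and were not scored themselves. No FR internode library went against its cultivar label, and the ranges did not overlap. In 5 libraries the score lay more than 0.2 of the way to the other cultivar's median. They were replicates 7 and 8 of Moneymaker at 48 h (1.72 and 1.38), replicate 5 of M82 at 6 h (0.0913) and replicates 2 and 4 of M82 at 48 h (0.0778 and 0.689).

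**Figure D1:**
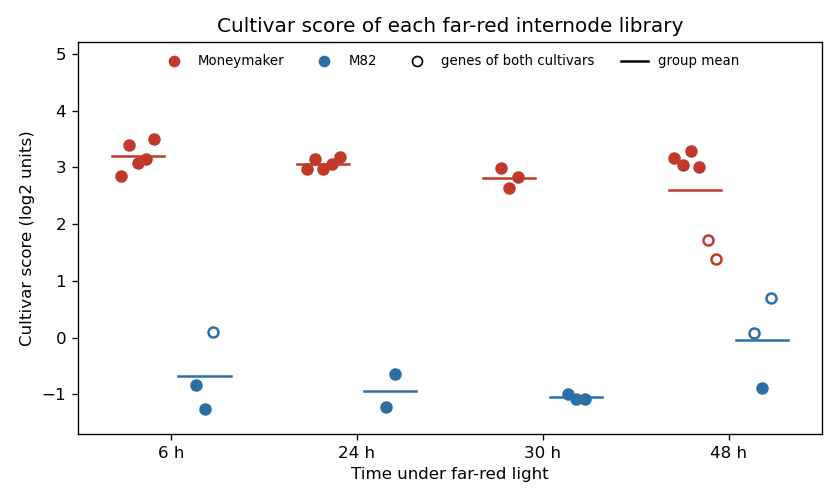
Cultivar score (log2 units, vertical axis) of the 19 Moneymaker and 11 M82 far-red internode libraries by time. Open points are the 5 libraries with genes of both cultivars, and bars are group means. The filled Moneymaker points sit between 2.63 and 3.5 and the filled M82 points between -1.26 and -0.637.

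Genes that pith showed in 1 cultivar alone were read next. They were chosen from the same pith libraries as the score genes and may be among them, so they are no separate check of the score. The 7 genes seen in M82 pith only stood at 26.8% and 29.2% of their M82 pith level in Moneymaker 48 h replicates 7 and 8, and at 0 to 2.58% in the other 17 Moneymaker libraries. The 4 genes seen in Moneymaker pith only stood at 24.2%, 25.1% and 26.0% of their Moneymaker pith level in M82 6 h replicate 5 and 48 h replicates 2 and 4, and at 0 to 11% in the other 8 M82 libraries. The 11% was M82 6 h replicate 1, with a cultivar score of -0.843, and the next value was 4.55%. On these genes too, the 5 libraries picked by their score showed genes of both cultivars. How they came to do so was not tested.

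A light score, built in the same way from 231 genes higher and 235 lower under FR in pith, set 1 further library apart. M82 24 h replicate 3 scored 0.00877, against 0.876 to 2.64 in the other 29 FR internode libraries and -0.337 to 1.87 in the WL internodes (median 0.190). The ranges of the 2 lights overlapped, with M82 WL libraries at 1.87 (30 h replicate 1) and 0.974 (48 h replicate 4) inside the FR range. A clock score from genes that differed between times of day in WL internodes was 0.0782 to 0.807 at 6 and 30 h and -1.76 to -0.849 at 24 and 48 h. It placed all 30 libraries at their labelled time of day, and it cannot tell 6 h from 30 h or 24 h from 48 h. Results are given with all 30 libraries as labelled, and then without the 5 libraries (25 left) or without all 6 (24 left). Both steps were chosen after seeing the data. Many cultivar genes of pith are also cultivar genes here, so a larger difference in the 25 libraries follows in part from how they were chosen.

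Over the 4 times, 151 of 18992 tested genes differed between the cultivars, 0.795% of those tested. In Moneymaker 68 were higher (0.358%) and 83 lower (0.437%). Unadjusted p-values below 0.05 numbered 1847, where 950 would be reached by chance. Without the 5 libraries 136 genes were called (0.714%), 64 higher (0.336%) and 72 lower (0.378%), of which 117 were among the 151. Without all 6 libraries 118 were called (0.621%), 57 higher (0.300%) and 61 lower (0.321%), 108 of them shared.

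Harvest time accounted for a median of 15.1% of a gene's variance, and 2718 genes (14.3%) differed between times. Cultivar accounted for a median of 2.12% over all genes and of 48.3% over the called genes. The called genes were chosen for their cultivar difference in these same libraries, so their high share follows from the choice.

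The called genes were chosen for their difference in these same libraries, so its size follows in part from the choice. The median difference was 1.34 for the 68 higher genes and -1.27 for the 83 lower genes. Over all tested genes the median was 0.00219, and 0.162 when signs were ignored. At least a 2-fold difference was found in 107 of the 151, 51 higher and 56 lower, and in 134 of all 18992 tested genes. The other 44 calls (29.1%) were under 2-fold. An 8-fold difference or more was found in 18, of which 5 were higher and 13 lower in Moneymaker. Averaged over the 30 libraries, the called genes had low levels, with a median log2 value of 2.74 against 4.28 over all tested genes. That average covers both cultivars, so a gene near 0 in 1 of them gets a low level in part from its difference. In 17 genes (0.0895%) the ranges of the 2 cultivars did not overlap over the 30 libraries, with Moneymaker above M82 in 7 (0.0369%) and below it in 10 (0.0527%). Over the 25 libraries this held for 46 genes (0.242%).

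The 2 higher and 2 lower genes with the smallest p were taken among calls of at least 2-fold with an average log2 value of 1 or more. Near presence or absence marked them. Solyc08g074895 had 16.6 to 69.0 units in the 19 Moneymaker libraries (median 31.9), against 0 to 15.1 units in the 11 M82 libraries (median 0.647). By time, M82 had 3.44, 1.14 and 6.95 units at 6 h, 0 in all 5 libraries at 24 and 30 h, and 15.1, 0.647 and 6.33 units at 48 h. Every Moneymaker library was above every M82 library, and the 3 highest M82 values came from the 3 M82 libraries with genes of both cultivars. The log2 difference was 3.75 ± 0.31 (SE, n = 19 and 11; limma, adjusted p = 1.39e-10), a 13.5-fold difference. Over the 25 libraries it was 4.51 ± 0.24, or 22.8-fold, with 0 to 3.44 units in M82.

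Solyc04g016550, on chromosome 4, had 8.37 to 26.9 units in Moneymaker (median 17.3), against 0 to 8.24 units in M82 (median 0). The M82 libraries with genes of both cultivars had 8.24, 5.60 and 4.28 units, and the other 8 had 0 to 1.88 units. The ranges did not overlap. The log2 difference was 3.20 ± 0.28 (limma, adjusted p = 3.76e-10), a 9.16-fold difference, and 3.91 ± 0.22 over the 25 libraries, or 15-fold.

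The reverse pattern was found for Solyc02g069760. It had 0 to 7.18 units in Moneymaker (median 0), against 9.21 to 38.6 units in M82 (median 24.6). No read fell on it in any of the 5 Moneymaker libraries at 6 h. Its 2 highest Moneymaker values, 4.62 and 7.18 units, came from replicates 7 and 8 at 48 h, and the other 17 Moneymaker libraries had at most 0.724 units. The log2 difference was -4.20 ± 0.28 (limma, adjusted p = 1.43e-12), which is 18.4-fold lower in Moneymaker, and -4.48 ± 0.24 over the 25 libraries.

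Solyc04g057790, also on chromosome 4, had 0 to 11 units in Moneymaker (median 0.241), against 18.5 to 91.1 units in M82 (median 35.8). The M82 values were 91.1, 74.6 and 32.5 units at 6 h, 35.8 and 19.8 at 24 h, 32.9, 18.5 and 55.4 at 30 h and 37.1, 49.3 and 20.6 at 48 h. Moneymaker replicates 7 and 8 at 48 h had 7.86 and 11 units, and no other Moneymaker library had more than 1.69 units. All M82 libraries were above all Moneymaker libraries. The log2 difference was -4.57 ± 0.33 (limma, adjusted p = 3.24e-12), which is 23.8-fold lower in Moneymaker, and -5.07 ± 0.27 over the 25 libraries.

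The size of such differences depends on the pseudocount and the model, since 1 cultivar is near 0. Over the alternatives, the log2 difference ran from 2.58 to 4.78 for Solyc08g074895, from 1.96 to 4.40 for Solyc04g016550, from -6.49 to -2.63 for Solyc02g069760 and from -6.19 to -3.10 for Solyc04g057790.

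**Figure D2:**
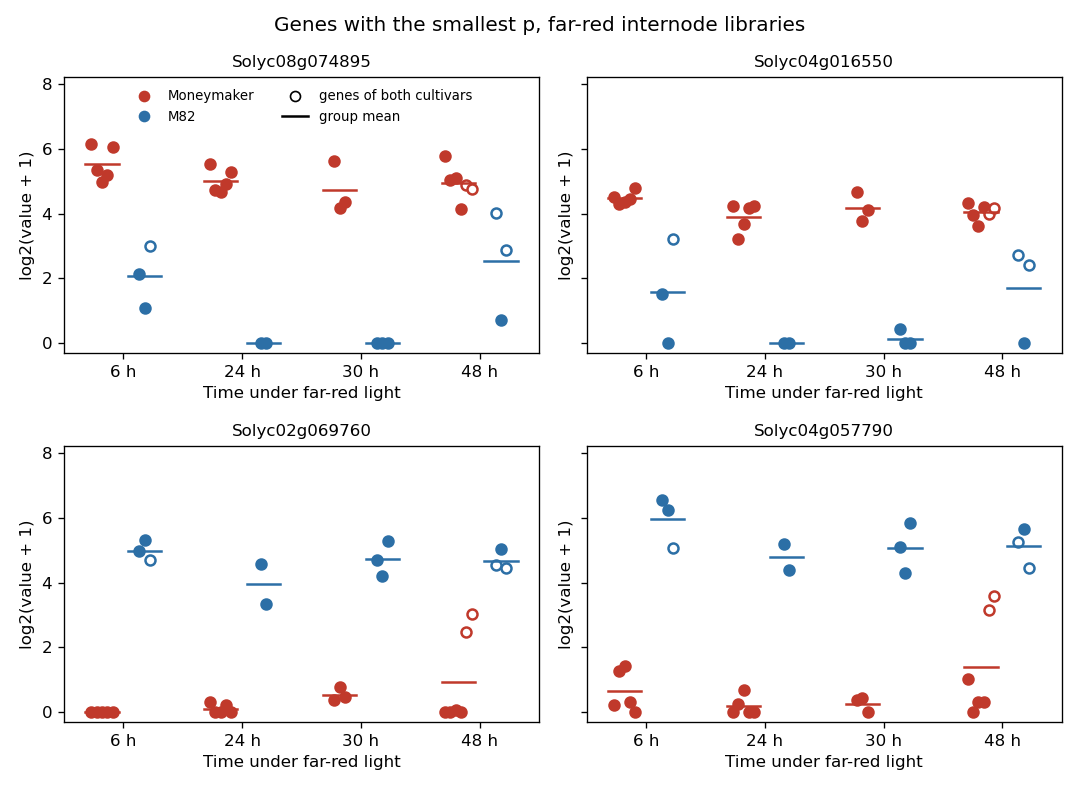
log2(value + 1) of the 4 genes in each far-red internode library by time, Moneymaker left of M82. Open points are the libraries with genes of both cultivars, and bars are group means. In Solyc08g074895 and Solyc04g016550 all Moneymaker libraries lie above all M82 libraries, and in Solyc02g069760 and Solyc04g057790 all lie below them.

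Complete absence was seen in few genes. Over the 30 libraries, no tested gene lacked a read in all libraries of 1 cultivar. Over the 25 libraries, 3 genes had no read in 86.1 M reads of Moneymaker and 4 had none in 24.8 M reads of M82. A count table cannot tell a lower transcript level from fewer mapped reads of an allele that differs from the reference genome, and no source used here names the reference build.

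The difference between the cultivars was then read at each time. At 6 h 54 genes were called (0.284% of those tested), 24 higher (0.126%) and 30 lower (0.158%) in Moneymaker. At 24 h there were 40 (0.211%), 17 higher (0.0895%) and 23 lower (0.121%). At 30 h there were 41 (0.216%), 17 higher (0.0895%) and 24 lower (0.126%). At 48 h there were 19 (0.100%), 5 higher (0.0263%) and 14 lower (0.0737%). Without the 5 libraries with genes of both cultivars, 4 of which were from 48 h, the counts were 43, 43, 45 and 27, the last with 1 M82 library left at 48 h. Without all 6 libraries they were 39, 27, 44 and 26, with 1 M82 library left at 24 h and 1 at 48 h. A lone library was assumed to vary like the other groups.

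The counts by time also moved with the model. They were 0, 4, 1 and 0 in 1 limma fit of all 86 libraries. DESeq2 called 244 at 6 h, and edgeR called 24, 20 and 0 at 24, 30 and 48 h.

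Single libraries moved these counts. The 6 h count was 263 without Moneymaker 6 h replicate 4, 135 without M82 6 h replicate 1 and 104 without Moneymaker 48 h replicate 4. The 24 h count, which rests on 2 M82 libraries, was 184 without M82 replicate 2 and 16 without M82 replicate 3, the library with the low light score. The 48 h count was 9 and 3 without M82 48 h replicates 2 and 3, and 7 and 8 without Moneymaker 48 h replicates 1 and 4.

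The direction held over time. Of the 151 genes, 150 had the same sign of difference at all 4 times, 15 were called at each of the 4 times and 91 at none of them alone. The 68 higher genes had median differences of 1.43, 1.42, 1.47 and 1.18 at 6, 24, 30 and 48 h, and the 83 lower genes -1.43, -1.58, -1.42 and -1.06. All 4 times chose these genes, so this describes them and is no independent test.

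Lists called at 1 time share no library with the other times, though 1 fit estimated the spread of all of them. Of the 54 genes called at 6 h, 52 had the same sign at 24 h, 52 at 30 h and 53 at 48 h, and 32, 31 and 16 of them were called there in the same direction. All 19 genes called at 48 h had the same sign at the other times, and 16 were called at each. A test of whether the cultivar difference changed between times called 0 genes by limma (0%). An unadjusted p below 0.05 was found in 767, fewer than the 950 that would be reached by chance. The test called 0 genes with the quasi-likelihood test of edgeR and 5 with DESeq2. Limma called 31 genes without M82 24 h replicate 2, which leaves the library with the low light score as the only M82 library at 24 h.

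The same genes were read in WL internodes, which share no library with the FR comparison. With libraries as labelled, limma called 0 genes (0%), edgeR 0 and DESeq2 7, and 1125 genes had an unadjusted limma p below 0.05. Among the WL internodes, 7 libraries went against a label, 6 by cultivar score (2 Moneymaker and 4 M82) and 1 Moneymaker library by clock score. One of the M82 libraries, 30 h replicate 1, also went against its light label, with a light score of 1.87. Even as labelled, 66 of the 68 higher genes had a positive difference under WL (median 0.72), and 75 of the 78 lower genes that were tested had a negative one (median -0.90). The median over all genes was -0.02.

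Without these 7 libraries (10 Moneymaker and 11 M82 left), 216 genes were called (1.13%), 49 higher (0.257%) and 167 lower (0.877%) in Moneymaker. Choosing libraries by their cultivar genes favours such calls. M82 WL 48 h replicate 2 was kept, though it had genes of both cultivars by its score (0.39). Of the 68 genes higher under FR, 67 had a positive difference under WL and 38 were called, 55.9% of the FR list and 77.6% of the WL list. Of the 83 lower under FR, 81 were tested, 80 had a negative difference and 60 were called, 72.3% of the FR list and 35.9% of the WL list. No gene was called in opposite directions.

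The 4 genes above followed this. Solyc08g074895 had a log2 difference of 4.02 ± 0.36 under WL without the 7 libraries, and Solyc04g016550 one of 3.73 ± 0.32. Solyc02g069760 had -4.60 ± 0.27 and Solyc04g057790 -4.93 ± 0.27. With all 28 WL libraries as labelled the differences were 2.42, 2.44, -2.78 and -2.95, and none was called.

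**Figure D3:**
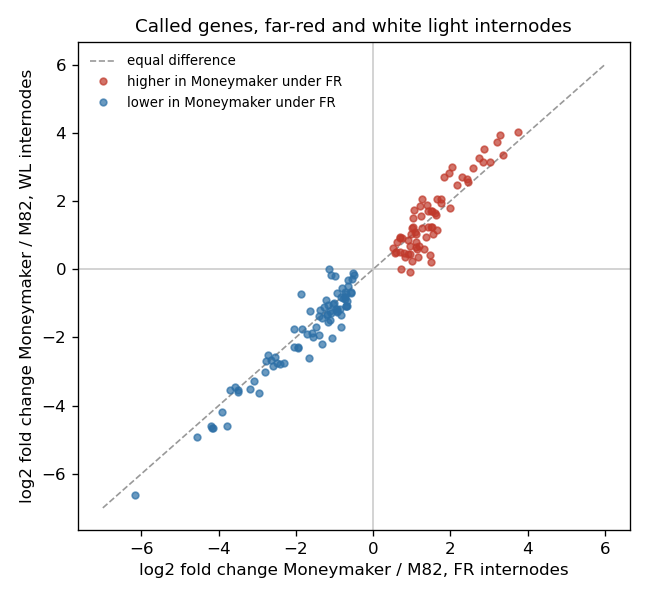
log2 difference between Moneymaker and M82 of the genes called in far-red internodes, in far-red internodes (horizontal) and in white light internodes without the 7 libraries against a label (vertical). Of the tested genes, 67 of 68 higher and 80 of 81 lower under FR have the same sign under WL.

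Whether the cultivar difference itself depended on light was tested over all internodes. With libraries as labelled limma called 0 genes (0%), and both edgeR and DESeq2 called 0. An unadjusted limma p below 0.05 was found in 593 (3.11%). Without the libraries against a label limma again called 0 (0%), and 521 (2.74%) had an unadjusted p below 0.05. Both numbers are fewer than chance alone would give. The median standard error of that difference of differences was 0.32, against 0.19 for the FR difference alone, so smaller dependence on light was not detectable at this replication.

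Pith gave the third view. Of 50 genes called higher in Moneymaker pith, all 50 had a positive difference in FR internodes (median 1.00) and 28 were called. Of 48 lower in pith, 44 were tested, all 44 had a negative difference (median -2) and 40 were called. The shared genes were 41.2% of the higher FR internode list and 56% of the pith list, and 48.2% and 83.3% of the lower ones. Whole internodes contain pith, so the tissues are not separate in this.

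The cultivars were also compared in the genes that respond to far-red light in pith. Of the 231 genes higher under FR there, 0 were called higher and 2 lower in Moneymaker FR internodes, with a median difference of -0.08 and 79 positive and 152 negative differences. Of the 235 lower under FR there, 231 were tested, with 4 called higher and 0 lower, a median of 0.10 and 144 positive and 87 negative differences. Over the 24 libraries the medians were -0.17 and 0.16, with 33 and 154 positive differences. One of the libraries left out, M82 24 h replicate 3, was chosen for its low score on these same genes, so that shift follows at least in part from the choice and supports nothing. The called genes were 0.866% and 1.70% of the 2 lists, beside 0.795% of all genes tested.

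The called genes were unevenly spread over the chromosomes. Chromosome 4 held 40 of its 1568 tested genes as calls (2.55%), 26.5% of all calls, with 21 higher and 19 lower in Moneymaker. Chromosome 12 followed with 19 of 1242 (1.53%) and chromosome 9 with 15 of 1348 (1.11%). Chromosome 10 had 2 calls, chromosomes 7 and 11 had 3 each, and chromosome 1, with 2367 tested genes, had 5 (0.211%). Among calls of at least 2-fold, chromosome 4 held 28 (26.2%). Without the 5 libraries with genes of both cultivars it held 36 calls among 1574 tested genes (2.29%). Over all chromosomes 0.714% were called there. The chromosome 4 share ran from 1.93% to 3.00% over 44 alternative analyses, of which 30 leave out 1 library. The total of calls moved as well, from 96 to 222, and the all-gene share is not given for each.

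**Figure D4:**
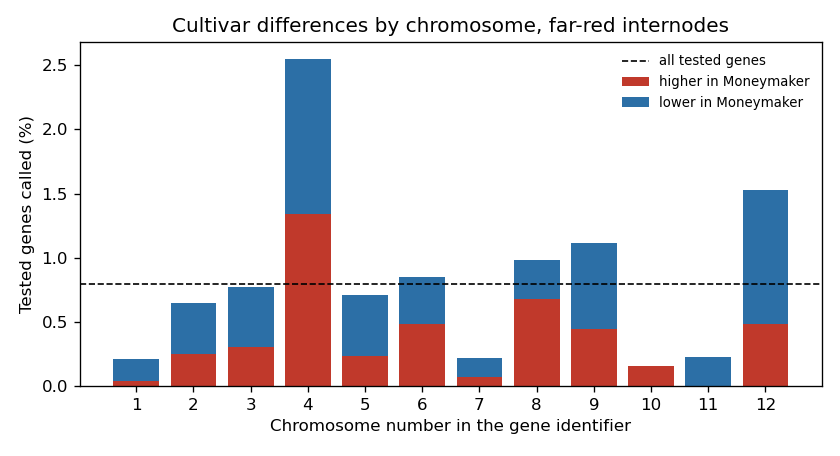
Percent of tested genes called in far-red internodes (vertical axis, from 0) by chromosome number, split into genes higher and lower in Moneymaker. The dashed line is the share over all tested genes, 0.795%. Chromosome 4 stands at 2.55% and chromosome 12 at 1.53%.

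Within chromosomes the calls clustered. In windows of 50 consecutive tested genes, 573 of 739 windows had no call, and the densest held 11 (22%), from Solyc04g016520 to Solyc04g025540 on chromosome 4. With windows of 100 genes the densest held 14 (14%) and overlapped this one. With windows of 25 genes 2 windows tied at 9 calls (36%), from Solyc04g016520 to Solyc04g024420 and from Solyc04g071960 to Solyc04g072170, the second with lower genes alone. The 5 stretches with at least 4 calls per window held 39 of the 151 calls (25.8%) in 2.24% of the tested genes. The other 112 calls were 0.603% of the genes outside them. The stretches were picked for their calls, so these shares are a description, and their genes lie next to each other in identifier order.

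The largest stretch, Solyc04g016060 to Solyc04g045600, held 125 tested genes, of which 14 were higher and 2 lower in Moneymaker (12.8%). The median of its genes that were not called was -0.04. In WL internodes without the 7 libraries it held 10 higher and 3 lower genes among 120 tested. Over all genes tested there, 0.257% were called higher and 0.877% lower. Solyc04g016550 lies in it, beside Solyc04g018080, which had 7.55 to 45.4 units in Moneymaker (median 15.3) and 0 to 5.17 units in M82 (median 0). M82 48 h replicates 2 and 4 had 5.17 and 5.02 units of it, while M82 6 h replicate 5, also a library with genes of both cultivars, had 0.573 units. M82 6 h replicate 1, which is not among those libraries, had 3.13 units. The ranges of the cultivars did not overlap, with a log2 difference of 3.35 ± 0.31 (limma, adjusted p = 1.10e-09).

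Of the 2 lower genes of this stretch, Solyc04g018100 lies among the higher ones and Solyc04g016530 before the first of them. Solyc04g018100 had 6.82 to 31.0 units in Moneymaker (median 10.6) and 30.7 to 95.6 units in M82 (median 46.9), with a log2 difference of -1.95 ± 0.20 (limma, adjusted p = 1.14e-08). Solyc04g016530 had 9.42 to 36.3 units in Moneymaker (median 22.2) and 35.3 to 67.1 units in M82 (median 46.0), with a log2 difference of -1.17 ± 0.14 (limma, adjusted p = 4.13e-07). Both pairs of ranges overlapped by a narrow margin over 30 libraries and not over 25.

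A second stretch of chromosome 4, Solyc04g071320 to Solyc04g072810, had 9 calls among 100 tested genes, all lower in Moneymaker. Its 2 genes with the smallest p had higher levels and smaller differences than those above. Solyc04g072047 had 184 to 325 units in Moneymaker (median 241) and 249 to 588 units in M82 (median 436), with a log2 difference of -0.78 ± 0.11 (limma, adjusted p = 1.29e-05). Solyc04g072032 had 69.5 to 208 units in Moneymaker (median 123) and 130 to 384 units in M82 (median 229), with -1.02 ± 0.16 (limma, adjusted p = 4.12e-05). Several other calls of the stretch carry identifiers between these 2. Whether such neighbours share reads was not tested, so they may not be separate signals. The WL internodes without the 7 libraries had 0 higher and 10 lower genes here among 97 tested. Lower calls also outnumbered higher ones over all genes in that comparison (0.877% against 0.257%). These 2 stretches held 25 of the 40 calls of chromosome 4, and the other 15, Solyc04g057790 among them, lay outside.

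**Figure D5:**
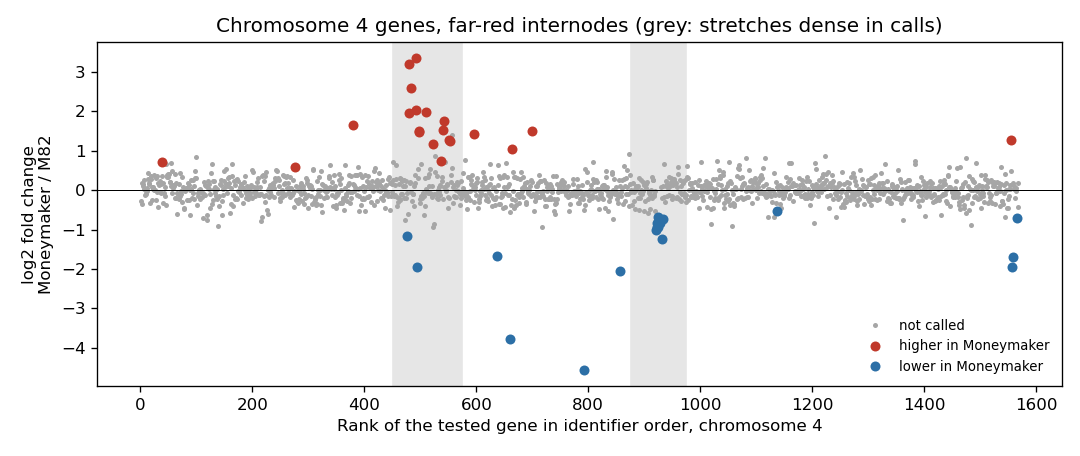
log2 difference between Moneymaker and M82 in far-red internodes of the 1568 tested genes of chromosome 4, in identifier order. Grey bands are the 2 stretches dense in calls: the first holds 14 higher and 2 lower genes, the second 9 lower genes.

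The other 3 stretches were smaller. On chromosome 2, Solyc02g063160 to Solyc02g065490 held 4 calls among 75 tested genes, all higher in Moneymaker. There were 3 calls without the 5 libraries, and 2 higher and 1 lower among 73 tested in WL internodes without the 7 libraries. Solyc02g063547 had 57.7 to 125 units in Moneymaker (median 79.1) and 28.9 to 76.7 units in M82 (median 49.6), with a log2 difference of 0.70 ± 0.11 (limma, adjusted p = 8.28e-05). Solyc02g063523 had nearly the same values in the same libraries, with 57.7 to 125 units in Moneymaker and 28.9 to 78.8 units in M82. Reads of near-identical or overlapping genes cannot be told apart here, so the pair may be 1 signal counted at both. Counted once, the stretch would not reach the 4 calls per window that define one.

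On chromosome 5, Solyc05g041470 to Solyc05g047420 held 4 calls among 50 tested genes, all lower in Moneymaker. In WL internodes without the 7 libraries it held 0 higher and 5 lower among 45 tested, with the same excess of lower calls over all genes. Solyc05g045670 had no read in 16 of the 19 Moneymaker libraries, 0.302 units in 1, and 13.9 and 16.6 units in replicates 7 and 8 at 48 h. In M82 it had 4.92 to 31.6 units (median 14.5). The 2 exceptions are the Moneymaker libraries with genes of both cultivars, and they lie within the M82 range. The log2 difference was -3.51 ± 0.35 (limma, adjusted p = 5.79e-09). Solyc05g043405 had 0 to 2.27 units in Moneymaker (median 0) and 4.17 to 10.6 units in M82 (median 5.52), without overlap, and a log2 difference of -2.72 ± 0.21 (limma, adjusted p = 1.57e-11).

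On chromosome 12, Solyc12g036650 to Solyc12g042545 held 1 higher and 4 lower genes among 75 tested in those WL internodes. In FR internodes it held 6 calls among 75 tested genes, 1 higher and 5 lower in Moneymaker. The higher one, Solyc12g042250, had 20.3 to 71.8 units in Moneymaker (median 38.9) and 6.38 to 38.5 units in M82 (median 19.9), with overlapping ranges and a log2 difference of 1.01 ± 0.20 (limma, adjusted p = 0.00235). Solyc12g038800 had 0 to 2.64 units in Moneymaker (median 0) and 2.89 to 18.7 units in M82 (median 7.32), without overlap, with -2.81 ± 0.25 (limma, adjusted p = 3.76e-10). Solyc12g038125 had 0 to 5.29 units in Moneymaker (median 0) and 1.67 to 18.2 units in M82 (median 12.1), with -2.97 ± 0.30 (limma, adjusted p = 8.97e-09). Its ranges overlapped over 30 libraries and not over 25.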

How the data were processed

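Random-primed libraries were prepared from polyA RNA, per the labels' protocols. The submitters' processing notes name FastQC, Trim Galore, STAR and featureCounts and no versions. No source used here names the genome build, the annotation or the strand setting. The table deposited by the authors gives each gene a signal in each library, a read count divided by a scaling factor of that library. Whole reads were recovered from the steps of the values (100% of nonzero values below 2000 reads within 0.02 of a read) and used for depth and for the count models. The table lists 23050 genes, with 0 columns lacking a sample and 0 entries lacking a gene identifier.

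Groups came from the sample titles. The treatment field of all white light Moneymaker samples reads FR, against their titles. The labels call the samples biological replicates. Genes whose mean value reached 1 over the libraries of a fit entered limma 3.58.1 in R 4.3.3 as log2(value + 1), with trended and robust moderation and Benjamini-Hochberg adjustment over all genes tested. Single times used 1 fit with 8 means, by cultivar and time, and interactions were contrasts or F-tests in such fits. The fit over the 4 times was tested on simulated data without time effects or libraries with genes of both cultivars, and the other fits were not. Alternatives were other pseudocounts, filters and scalings, edgeR 4.0.16 and DESeq2 1.42.0 on recovered reads, a replicate block, all libraries in 1 fit and leaving out libraries.

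Scores used genes called in pith for cultivar and light, and in WL internodes for clock time. The planned cultivar genes from WL internodes were empty, so pith genes were used. A library went against a label when its score lay more than 0.75 of the way to the other group's median, and held genes of both cultivars between 0.2 and 0.75. Genes seen in 1 cultivar of pith alone had a median of at least 10 units in it and below 0.3 units in the other. These limits, and the stretches of windows with at least 4 calls, were set after seeing the data.

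By the series design a shared replicate number means a shared batch of plants, which pairs libraries by label. Within a time, residuals of Moneymaker and M82 libraries of 1 number correlated over genes by 0.109 on average (6 pairs, 0.00556 to 0.294), against -0.0137 for other numbers (46 pairs). Moneymaker 48 h replicates 7 and 8 carry sample codes with lower numbers.

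The comparison and the lists were chosen with earlier results of these data known. Named genes are the 2 higher and 2 lower called genes with the smallest p, at least a 2-fold difference and an average log2 value of 1 or more, and the 2 of each direction with the smallest p in each stretch. Lists of pathway genes by name could not be applied, and no sequences are shown because no table used here holds them.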

Additional observations from a re-analysis of the deposited data

Results flagged for a closer look

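The Moneymaker groups at 6, 24 and 48 h, with 5, 5 and 6 libraries, were large enough to look for a library far from the rest. Over 16 named genes and 3 scores this gave 57 groups of values, of which 6 held such a library. Chance gives about 1 in 20 groups of continuous values, and that rate does not apply to groups at 0, where any library with a read stands apart. All 6 were the highest of their group for a gene that was lower in Moneymaker. The gene Solyc05g043405 had a log2 value of 0.381 in replicate 4 at 24 h and of 1.71 in replicate 8 at 48 h, a library with genes of both cultivars. In Solyc05g045670, replicate 4 at 24 h had 0.381. For Solyc12g038125, replicate 5 at 24 h had 0.596 and replicate 5 at 6 h had 0.162. Solyc12g038800 reached 0.584 in replicate 1 at 6 h. Apart from the 48 h value, which was 6 reads, every other library of these groups was at 0, and the values were 1 to 3 reads.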

How the results depend on the processing

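The 151 calls over 4 times stayed between 118 and 222 under every alternative other than a mean value of at least 5, which tests fewer genes and gave 96. DESeq2 gave 222 and shared all 151, and edgeR gave 143 and shared 132. The 16 named genes kept their direction and their call in all 701 values computed. They were chosen for a small p in these same libraries, so this was likely beforehand. Of the 44 alternatives, 30 leave out 1 library. Solyc05g043405, Solyc12g038800 and Solyc12g038125 had 43 values each. The size of genes near 0 in 1 cultivar moved, as in Solyc05g045670 with log2 differences from -6.69 to -1.98. With the replicate block the counts were 119 over 4 times (103 shared), 43, 29, 35 and 21 at 6, 24, 30 and 48 h, and 0 for each of the 3 comparisons that had 0, so pairing by batch number moved no count by more than 1.5 times.

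Single times moved more, and the cause was not tested. DESeq2 gave 244 at 6 h. One fit of all 86 libraries gave 0, 4, 1 and 0 at 6, 24, 30 and 48 h. edgeR gave 24, 20 and 0 at 24, 30 and 48 h, a mean value of at least 5 gave 25 at 24 h and 8 at 48 h, and a pseudocount of 0.25 gave 6 at 48 h. Without M82 24 h replicate 3, 16 were called at 24 h. DESeq2 called 5 genes whose difference changed with time. In WL internodes DESeq2 called 7 genes, 216 were called without libraries against a label, 240 without these and those with genes of both cultivars, and 7 without libraries under 1 M reads. No FR internode library was under 1 M reads, so that alternative gave no other value there.

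Leaving out 1 library at a time gave 120 to 179 calls over 4 times, 42 to 263 at 6 h, 16 to 184 at 24 h, 31 to 49 at 30 h and 3 to 25 at 48 h. It gave 0 to 31 for the change with time, 0 to 13 in WL internodes and 0 to 0 for the dependence on light. The WL count was 11 without M82 24 h replicate 1 or Moneymaker 30 h replicate 3, 13 without M82 30 h replicate 1 and 2 without M82 6 h replicate 5. Where a group was left with 1 library, that library was assumed to vary like the others. Depth limits the low genes, where 1 read was worth up to 0.966 units.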
